A study of Mus musculus with 8 samples.

Results

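The genes described here are 9 genes of retinoid binding and metabolism, read in sorted intestinal stem cells that carry an activated β-catenin with or without Mll1. The list holds the retinoid carrier proteins *Rbp2*, *Rbp4* and *Rbp7*, the retinal dehydrogenases *Aldh1a1*, *Aldh1a2* and *Aldh1a3*, the retinoic acid receptors *Rara* and *Rarg*, and *Cyp26b1*, an enzyme that degrades retinoic acid. They were chosen by name from the 53801 genes counted, after *Rbp4* had been seen to be higher in the libraries labelled beta-cateninGOF; Mll1-/-, so the difference in *Rbp4* is given as a description and is not tested. All 9 had a row in the count table, 7 of them also had one in the table of normalised counts, and 6 passed the filter on low counts (*Rbp2*, *Rbp4*, *Rbp7*, *Aldh1a1*, *Rara* and *Rarg*). *Rbp4* passed that filter only through the libraries labelled Mll1-/-.

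Vitamin A enters the gut epithelium as retinol or is made there from carotenes, is held by small cytosolic binding proteins, and is stored as retinyl esters or carried off. Alcohol and retinol dehydrogenases turn retinol into retinal, retinal dehydrogenases turn retinal into retinoic acid, nuclear retinoic acid receptors read it at DNA, and Cyp26 enzymes remove it. In the intestine the pathway is known for taking up dietary vitamin A in enterocytes and for supplying retinoic acid to epithelial and immune cells.

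Lgr5-GFP+ cells were sorted from the intestinal crypts of 8 mice and sequenced as bulk Smart-seq2 libraries, 1 library per mouse, to ask how loss of Mll1 changes stem cells in which β-catenin is active. All mice carried the beta-cateninGOF allele, which makes β-catenin stable, and Lgr5-EGFP-IRES-CreERT2, which confines recombination to cells that use the Lgr5 promoter. 4 mice were labelled beta-cateninGOF; Mll1-/- (knockout, titles "hom": J_7075, J_7096, J_7135 and J_7136) and 4 were labelled beta-cateninGOF; Mll1+/- (control, titles "het": J_7079, J_7100, J_7134 and J_7139), so the controls had also lost 1 copy of Mll1. Adult mice received tamoxifen at 50 mg/kg on 3 days from 4 to 6 weeks of age, cells were taken at day 10, and no library with normal β-catenin or with both copies of Mll1 was part of the comparison.

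Each library held 14468751 to 16847793 counts on genes, and 3 counts, taken as the floor of detection, were worth 0.162 to 0.240 CPM (counts per 1000000 counts of the library, scaled between libraries by edgeR's TMM factors). *Kmt2a*, which encodes Mll1, was at 63.3 ± 10.6 CPM in the libraries labelled Mll1-/- and at 53.6 ± 7.43 CPM in those labelled Mll1+/- (SD, n = 4 each; log2 fold change 0.24, SE 0.17, edgeR adjusted p = 0.710), so the gene's total count does not show which libraries lost it. Which exons the floxed allele removes was not analysed here, and the genotypes rest on the labels. *Lgr5*, the gene of the sort, was at 260 ± 19.9 and 270 ± 40.9 CPM. Library J_7135 (labelled Mll1-/-) stood apart, with a best rank correlation to any other library of 0.909, where the others reached 0.947 or more. The library numbers fall into 2 runs of 4 libraries, each with 2 mice per label, and *Xist* exceeded the sum of 4 Y-linked genes in 2 of 4 libraries labelled Mll1-/- and in 3 of 4 labelled Mll1+/-, in run 1 in 0 of 2 and in 2 of 2, so that in run 1 this split and the label cannot be told apart.

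The promoters are shown first for 4 members: *Rbp4*, whose direction chose the list, *Rbp2*, the member with the highest level per length, *Rara*, the other member with the smallest unadjusted p, and *Aldh1a2*, which was nearly without counts. Each is the 250 bases before a start site annotated by RefSeq in GRCm38.p6, written from 5′ to 3′ on the strand of the gene, and capitals mark the CpG dinucleotides. *Rbp4* has 2 such starts, at chr19:38125322-38125571 and chr19:38124812-38125061 on the minus strand. *Rara* has 4, of which the first is shown (chr11:98937446-98937695, plus strand), and *Rbp2* (chr9:98490287-98490536, plus strand) and *Aldh1a2* (chr9:71215539-71215788, plus strand) have 1 each.
Rbp4 start 1: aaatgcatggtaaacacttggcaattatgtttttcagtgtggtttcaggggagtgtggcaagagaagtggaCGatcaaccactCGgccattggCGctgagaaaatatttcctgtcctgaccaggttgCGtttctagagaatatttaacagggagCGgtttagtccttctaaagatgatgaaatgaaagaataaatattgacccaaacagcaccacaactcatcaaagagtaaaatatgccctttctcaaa
Rbp4 start 2: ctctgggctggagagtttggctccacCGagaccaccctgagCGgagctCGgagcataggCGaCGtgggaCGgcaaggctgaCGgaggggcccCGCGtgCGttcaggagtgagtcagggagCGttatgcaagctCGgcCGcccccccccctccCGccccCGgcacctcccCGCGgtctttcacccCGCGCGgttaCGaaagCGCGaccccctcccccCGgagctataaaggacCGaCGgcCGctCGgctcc
Rbp2: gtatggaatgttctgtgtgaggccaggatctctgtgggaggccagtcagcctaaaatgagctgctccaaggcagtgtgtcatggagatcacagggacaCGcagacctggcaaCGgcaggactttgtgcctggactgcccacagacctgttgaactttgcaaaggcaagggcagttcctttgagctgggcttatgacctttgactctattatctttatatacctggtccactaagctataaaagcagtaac
Rara start 1: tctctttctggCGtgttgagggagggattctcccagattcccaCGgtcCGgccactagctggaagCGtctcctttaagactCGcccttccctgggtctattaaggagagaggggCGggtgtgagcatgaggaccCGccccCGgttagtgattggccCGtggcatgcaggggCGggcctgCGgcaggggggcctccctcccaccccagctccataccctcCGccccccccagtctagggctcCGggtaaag
Aldh1a2: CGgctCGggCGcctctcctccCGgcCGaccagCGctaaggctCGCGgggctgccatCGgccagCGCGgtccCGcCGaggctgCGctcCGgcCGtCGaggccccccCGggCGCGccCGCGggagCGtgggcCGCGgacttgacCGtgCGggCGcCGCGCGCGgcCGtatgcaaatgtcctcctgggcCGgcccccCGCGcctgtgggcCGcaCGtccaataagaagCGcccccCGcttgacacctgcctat

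The members' promoters ranged from CpG-poor to CpG-rich, a property the choice of genes did not use. The 2 starts of *Rbp4* differed most within 1 gene, with 5 CpG dinucleotides in the window of the first and 28 in that of the second, more than in 92.4% of the 32851 promoters of the reference. Over all promoters the median was 6 and the quartiles were 2 and 16. *Rbp2* had 2 CpG dinucleotides, *Rbp7* 3, *Aldh1a1* 3 and 1 at its 2 starts, *Cyp26b1* 7, *Rarg* 11 and 10, and *Rara* 13, 13, 2 and 6. *Aldh1a2* had 40, more than 98.7% of all promoters, beside the near absence of its transcript in these cells. 8 of the 9 members were in the reference table, with 14 promoters between them, and *Aldh1a3* was not among them.

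Exact copies of 1 form of the letters that retinoic acid receptors are known to bind were searched on both strands, and other forms were not searched. The direct repeat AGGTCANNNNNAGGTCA was in 0 of the 14 member promoters and in 0.00913% of all promoters, AGGTCANNAGGTCA likewise in 0 of 14 and in 0.00913%, and AGGTCANAGGTCA in 0 of 14 and in 0.0335%. The single copy AGGTCA, which lies within each of these, was in 2 of 14, those of *Rbp2* and of 1 start of *Rarg*, and in 14% of all promoters. TATAAA was in 3 of 14, at the CpG-rich start of *Rbp4* and in *Rbp2* and *Cyp26b1*, and in 12.4% of all promoters. The repeats were so rare over all promoters that 0 of 14 does not set the members apart. These are matches of letters in a short window and say nothing of binding.

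**Figure D1:**
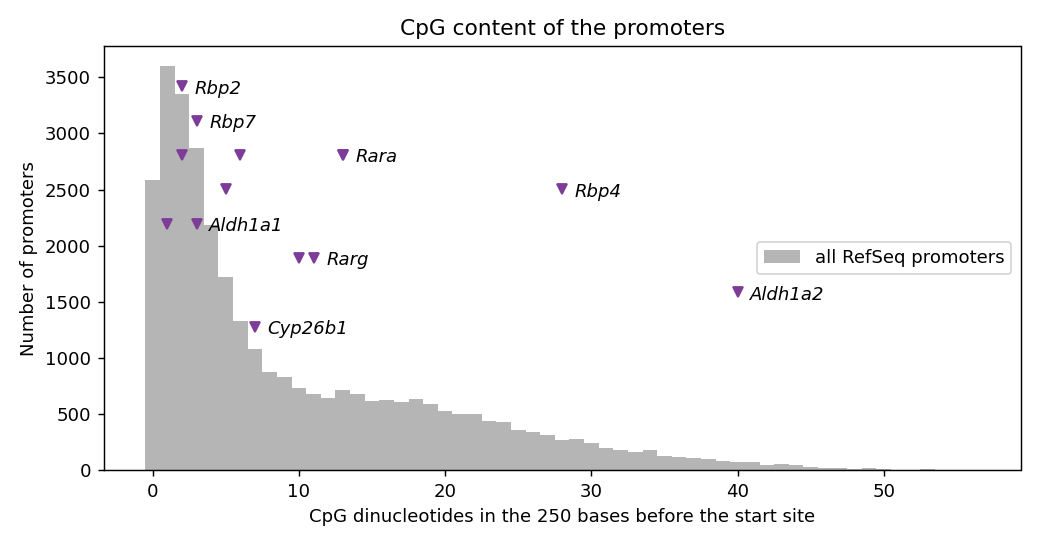
Number of CpG dinucleotides in the 250 bases before each RefSeq start site. Grey bars count all 32851 promoters, and triangles mark the 14 promoters of 8 members at a height of no meaning. *Aldh1a2* (40) and the second start of *Rbp4* (28) lie far to the right of the median of 6.

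*Rbp4*, the gene whose direction chose the list, encodes the protein that carries retinol in blood and between tissues (ENSMUSG00000024990, GRCm38 chr19:38116620-38125321, minus strand). It was at 2.06, 5.25, 3.88 and 1.37 CPM in J_7075, J_7096, J_7135 and J_7136, labelled Mll1-/-, and at 0.239, 0.140, 0.0800 and 0.0644 CPM in J_7079, J_7100, J_7134 and J_7139, labelled Mll1+/-. The groups did not overlap, and the lowest library labelled Mll1-/- lay well above the highest control. In counts this was 35, 91, 72 and 21 against 4, 2, 1 and 1, so 3 of the 4 control libraries were at or below the floor of 3 counts. Summed over libraries and set against their scaled depth, 219 counts against 8 gave a ratio of 23.7. The fitted log2 fold change was 4.48 (SE 0.68), and it lay between 4.12 and 4.94 when any 1 library was left out. Within the library runs the difference in mean log2 CPM, with 0.1 added, was 3.58 in run 1 and 3.82 in run 2.

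These are bulk libraries, in which more cells of a type that holds *Rbp4* and more *Rbp4* RNA per cell cannot be told apart. Marker lists of other cell types that moved with the label were therefore read beside it. The summed level of 8 fibroblast markers was 49.4 to 118 CPM in the libraries labelled Mll1-/- and 4.18 to 6.52 CPM in those labelled Mll1+/-. Almost all of that was *Vim*, an intermediate filament gene (72.0 ± 33.4 against 3.23 ± 2.18 CPM). Without *Vim* the sums overlapped, at 2.14 to 6.74 CPM in the libraries labelled Mll1-/- and 1.44 to 3.99 CPM in those labelled Mll1+/-. The means of *Pdgfrb* (1.86 against 0.781 CPM), *Col1a2* (0.735 against 0.280), *Dcn* (0.452 against 0.0722), *Lum* (0.438 against 0.413) and *Pdgfra* (0.0727 against 0.0485) were higher with the label Mll1-/-, those of *Col1a1* (0.241 against 0.353) and *Col3a1* (0.117 against 0.309) were lower, and each of the 7 overlapped between labels. The cells had been stained for EpCAM, an epithelial surface protein, and for CD45, a protein of blood cells, before the sort. The summed level of 17 enteroendocrine markers was 18.9 to 33.9 CPM against 39.2 to 106 CPM, lower and without overlap, but without *Pcsk1*, its highest marker, the sums overlapped (8.38 to 13.9 against 13.5 to 84.8 CPM). *Chga* and *Chgb* averaged 0.0404 and 0.366 CPM in the libraries labelled Mll1-/- and 2.62 and 12.02 CPM in those labelled Mll1+/-. The sum of the stem cell list was also lower (10726 to 17013 against 22782 to 27243 CPM), led by *Olfm4*. Without *Olfm4* the stem cell sums were still lower without overlap, at 2627 to 3545 against 3559 to 4524 CPM. The next highest marker, *Slc12a2*, was at 1414 ± 290 against 2588 ± 330 CPM. The 10 markers of the stem cell list had a median log2 fold change of -0.040, with 4 fitted higher and 6 lower. The sums of the goblet, Paneth, enterocyte, endothelial and immune lists overlapped between labels, which hides fitted differences of single markers. Of 9 goblet markers 7 were fitted higher and 2 lower (median log2 fold change 1.09), and of 8 Paneth markers 2 and 6 (-0.87). Of 9 tested enterocyte markers 1 was fitted higher and 8 lower (-1.16), and edgeR called 0 markers of these lists. No marker was at 0 in all libraries, and the part of these shifts in the level of *Rbp4* was not tested.

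**Figure D2:**
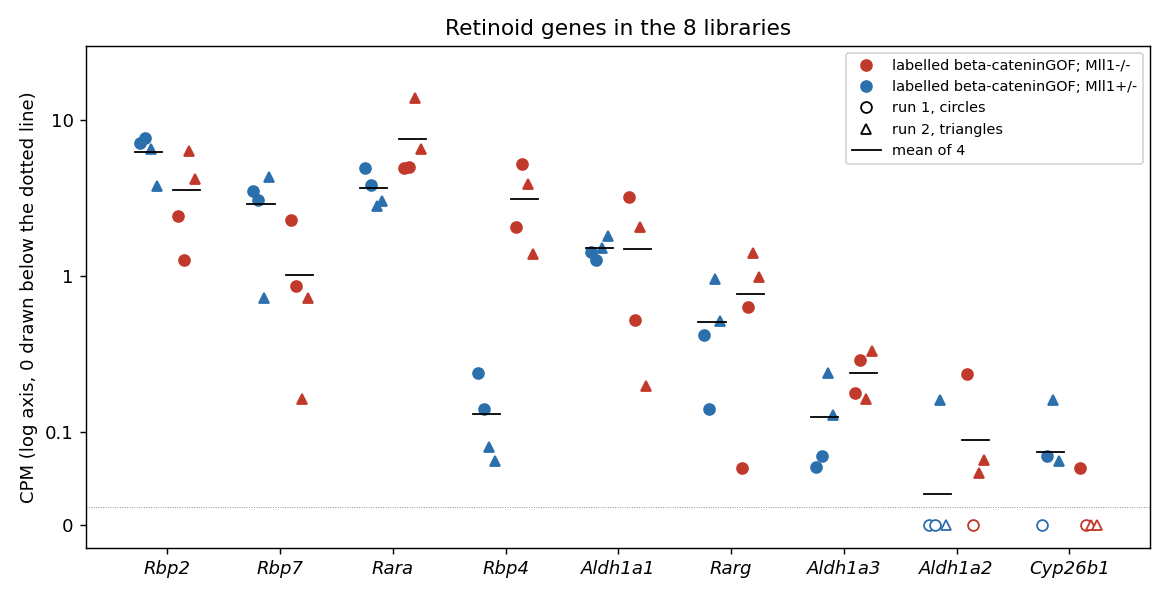
CPM of the 9 genes in each library, on a log axis with 0 drawn below the dotted line. Red symbols are the 4 libraries labelled beta-cateninGOF; Mll1-/-, blue symbols the 4 labelled beta-cateninGOF; Mll1+/-, circles run 1, triangles run 2, and bars the mean of 4. Of the 6 genes that passed the filter, only *Rbp4* has red and blue symbols that do not overlap, beside 6.28% of all genes tested. Its direction chose the list and it passed the filter only through the red libraries, so this is a description.

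With *Rbp4* left out as not tested, none of the members passed the test between the genotypes. Of the 5 others that could be tested, 0 passed an adjusted p of 0.1 in edgeR's quasi-likelihood test over 16445 genes, which called 0.0851% of all genes (14), and 0 passed in DESeq2, which called 2.47% of them. At an unadjusted p under 0.05, 1 of the 5 passed (*Rara*), against 9.15% of all genes. In 0 of the 5 did the libraries of the genotypes not overlap, against 6.28% of all genes. 2 of the 5 were fitted higher and 3 lower in the libraries labelled Mll1-/-, with a median log2 fold change of -0.00094 beside 0.0076 over all genes tested.

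*Rbp2* encodes the cytosolic retinol-binding protein of the absorptive gut epithelium (ENSMUSG00000032454, chr9:98486115-98509781, plus strand). Its levels were 2.41, 1.27, 6.36 and 4.19 CPM in J_7075, J_7096, J_7135 and J_7136 and 7.10, 7.71, 6.56 and 3.80 CPM in J_7079, J_7100, J_7134 and J_7139. Only the 2 run 1 libraries labelled Mll1-/- lay below all controls, and the other 2 lay inside the range of the controls. The means were 3.56 ± 2.22 and 6.29 ± 1.73 CPM (SD, n = 4 each), and the log2 fold change of -0.82 (SE 0.49) did not pass the test (edgeR adjusted p = 0.655). The difference was -2.01 in run 1 and 0.048 in run 2, so it was not seen in both runs. It grew to -1.26 without J_7135 and shrank to -0.54 without J_7096, and it passed the test in neither case. Beside it, 8 of the 9 tested markers of enterocytes were fitted lower in the libraries labelled Mll1-/- and 1 higher, while their summed level overlapped (699 to 956 against 863 to 981 CPM), and their part in the level of *Rbp2* was not tested.

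*Rbp7* encodes a further cytosolic retinol-binding protein, known from fat and from endothelium (ENSMUSG00000028996, chr4:149449687-149454978, minus strand). It was at 2.29, 0.866, 0.162 and 0.720 CPM in J_7075, J_7096, J_7135 and J_7136 and at 3.52, 3.08, 0.720 and 4.31 CPM in J_7079, J_7100, J_7134 and J_7139. 3 controls stood above every library labelled Mll1-/-, but the control J_7134 sat with the low libraries, so the groups overlapped. The means of 1.01 ± 0.908 and 2.91 ± 1.55 CPM gave a log2 fold change of -1.52 (SE 0.78, edgeR adjusted p = 0.607). The difference had the same sign in both runs, -1.16 in run 1 and -2.04 in run 2, and ran from -2.32 without J_7075 to -1.16 without J_7135. The 8 endothelial markers summed to 4.91 to 6.87 against 4.42 to 6.56 CPM, most of it *Pecam1*, and the other 7 averaged at most 0.317 CPM each.

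**Figure D3:**
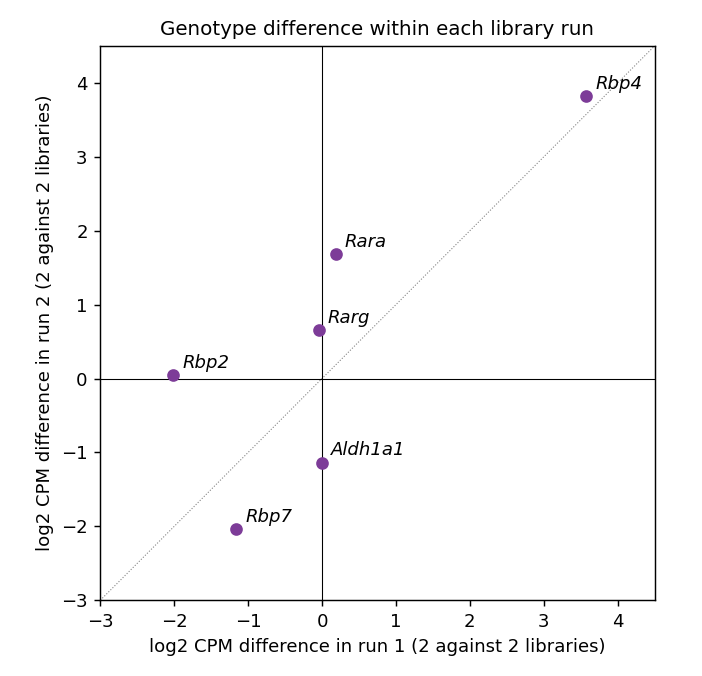
Difference in mean log2 CPM (0.1 added) between the libraries labelled Mll1-/- and Mll1+/-, for the 6 members that passed the filter. Run 1 is on the horizontal axis and run 2 on the vertical axis. Points on the dotted line have the same difference in both runs. *Rbp4* lies near the line at 3.58 and 3.82, *Rbp2* differs in run 1 and not in run 2, and *Rara* in run 2 more than in run 1.

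The retinal dehydrogenases, which make retinoic acid, were low. *Aldh1a1* (ENSMUSG00000053279, chr19:20492715-20643462, plus strand) was at 3.24, 0.520, 2.05 and 0.196 CPM in J_7075, J_7096, J_7135 and J_7136 and at 1.43, 1.26, 1.52 and 1.80 CPM in J_7079, J_7100, J_7134 and J_7139. The libraries labelled Mll1-/- lay on both sides of the controls, 2 above and 2 below all 4 of them, and the coefficient of variation was 94.1% against 15.0%. That contrast in spread was noticed in the values and was not tested. The means were the same to within their spread (1.50 ± 1.41 and 1.50 ± 0.226 CPM), with a log2 fold change of -0.00094 (SE 0.76, edgeR adjusted p = 1.00). Leaving out 1 library moved it between -0.70 and 0.36, and 5.7% of the 31-base words of *Aldh1a1* also occur in its paralog *Aldh1a7*.

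*Aldh1a3* and *Aldh1a2*, the other enzymes that make retinoic acid, did not pass the filter and have no test. *Aldh1a3* (ENSMUSG00000015134, chr7:66390890-66427517, minus strand) had 3, 5, 3 and 5 counts in the libraries labelled Mll1-/- and 1, 1, 3 and 2 in those labelled Mll1+/-, which is 5 or fewer in each library. *Aldh1a2* (ENSMUSG00000013584, chr9:71215789-71296243, plus strand) had 4, 0, 1 and 1 counts against 0, 0, 2 and 0. *Cyp26b1*, the degrading enzyme (ENSMUSG00000063415, chr6:84571414-84593908, minus strand), had 1, 0, 0 and 0 counts against 0, 1, 2 and 1. Differences between the genotypes in these 3 genes could not be read at counts this low.

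*Rara*, a receptor that reads retinoic acid in most cells, came nearest to a difference (ENSMUSG00000037992, chr11:98927818-98974942, plus strand). It was at 4.94, 5.02, 13.97 and 6.55 CPM in J_7075, J_7096, J_7135 and J_7136 and at 4.95, 3.86, 2.80 and 3.03 CPM in J_7079, J_7100, J_7134 and J_7139. J_7135, the library that stood apart, was the highest, and J_7075 and the control J_7079 were level. The means were 7.62 ± 4.29 and 3.66 ± 0.975 CPM, and the log2 fold change of 1.06 (SE 0.41) had an unadjusted p of 0.0297 and did not pass after adjustment (edgeR adjusted p = 0.499). Without J_7135 it was 0.58, and within the runs it was 0.19 in run 1 and 1.68 in run 2.

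*Rarg* encodes a further retinoic acid receptor, best known from skin and cartilage (ENSMUSG00000001288, chr15:102234938-102257517, minus strand). It had 1, 11, 26 and 15 counts in J_7075, J_7096, J_7135 and J_7136 and 7, 2, 12 and 8 in J_7079, J_7100, J_7134 and J_7139, so both labels held a library at or under the floor. The means of 0.770 ± 0.568 and 0.508 ± 0.340 CPM gave a log2 fold change of 0.60 (SE 0.84, edgeR adjusted p = 0.876), which was 0.14 without J_7135 and 1.08 without J_7134.

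**Figure D4:**
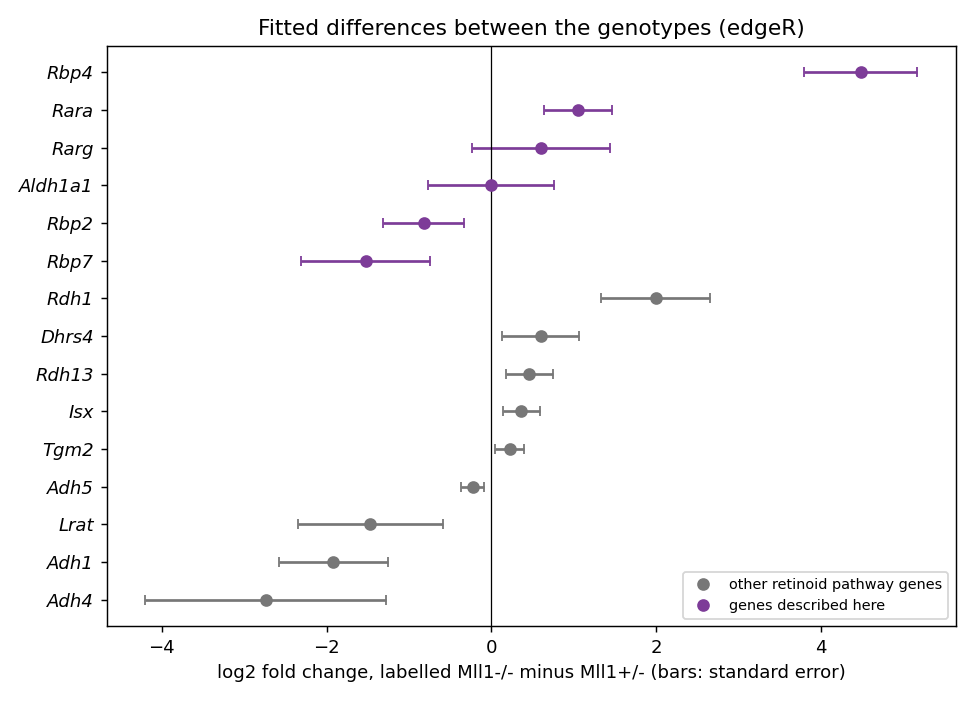
Fitted log2 fold change (edgeR) between the libraries labelled Mll1-/- and Mll1+/-, with its standard error as the bar. Purple marks the 6 members that passed the filter, and grey 9 of the 10 other retinoid genes with the smallest unadjusted p. *Rbp4*, whose direction chose the list, lies at 4.48, and the other members lie between -1.52 and 1.06.

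Set on a scale of level per length (RPKM, the CPM divided by the exonic kilobases of the gene), the members ran from the middle of the range of genes to a few counts per library. Over all 8 libraries *Rbp2* had the highest mean RPKM, 5.12 (range 1.32 to 8.01), which was above the mean RPKM of 57.3% of the genes tested. *Rbp7* followed at 2.73 RPKM (0.225 to 6.01), *Rara* at 1.29 RPKM (0.641 to 3.20) and *Rbp4* at 1.26 RPKM (0.0496 to 4.05). *Aldh1a1* was at 0.304 RPKM and *Rarg* at 0.150 RPKM, above 4.75% and 1.35% of the genes tested. *Aldh1a3*, *Aldh1a2* and *Cyp26b1* were at 0.0393, 0.0284 and 0.00825 RPKM. *Rbp4* crossed this order between labels, since it was at 1.06 to 4.05 RPKM in the libraries labelled Mll1-/- and at 0.0496 to 0.184 RPKM in those labelled Mll1+/-.

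The order of neighbours was tested with little power, and the neighbours were set by ranking the same 8 libraries. Pairs that hold *Rbp4*, whose direction chose the list, are counted among the pairs but not read as results. The log2 difference in RPKM, with 0.1 added, was tested in each of the 8 neighbouring pairs over the 8 libraries with an exact two-sided sign-flip permutation test, whose smallest possible p is 0.0078. A single pair could then not go below an adjusted p of 0.0625 over the 8 pairs, and 0 of the 8 passed 0.05, which does not show that neighbours have the same level. The nearest was *Rarg* above *Aldh1a3*, by 0.73 ± 0.58 (SD, n = 8) and in 7 of 8 libraries (exact permutation p = 0.0234, adjusted 0.188 over the 8 pairs). *Rbp2* exceeded *Rbp7* in 6 of 8 libraries, by 1.21 ± 1.69 on the log2 scale (exact permutation p = 0.0859, adjusted 0.250). In CPM, without division by length, *Rara* came first, before *Rbp2*, *Rbp7*, *Rbp4* and *Aldh1a1*. There the pairs *Rbp2* and *Rbp7*, *Rarg* and *Aldh1a3*, and *Aldh1a3* and *Aldh1a2* had an exact permutation p of 0.0234, 0.0234 and 0.0156. Each of these 3 pairs stood at an adjusted p of 0.0625 in the same exact permutation test, with an unadjusted p above the smallest possible.

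**Figure D5:**
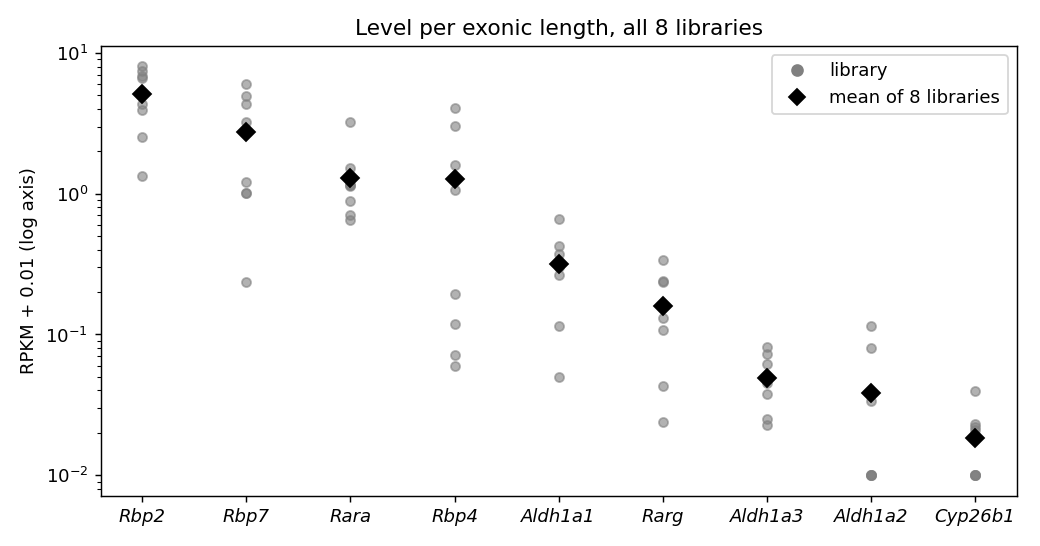
Level per exonic length of the 9 genes, as RPKM with 0.01 added on a log axis. Grey points are the 8 libraries and diamonds their mean. The means fall from 5.12 RPKM in *Rbp2* to 0.00825 RPKM in *Cyp26b1*, and the points of neighbouring genes overlap.

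The 6 members that passed the filter did not move together as a group. After the mean of each label was taken from the log2 CPM, the correlation between 2 members over the 8 libraries ran from -0.80 (*Rbp7* and *Rarg*) to 0.78 (*Rbp2* and *Rara*), given as a description since the pairs share libraries and several genes rest on few counts. The genes whose log2 CPM followed *Rbp4* most closely over the 8 libraries were *Farp1* (Pearson r 0.976), *Spock2* (0.974), *R3hdml* (0.957), *Gm9844* (0.954) and *Ints7* (0.9504), picked as the highest of all genes tested. Since *Rbp4* separates by label, picking genes by their r with it favours genes that separate too. All 5 were higher in each library labelled Mll1-/- than in any labelled Mll1+/-, where 6.28% of all genes tested did not overlap in either direction. After the label means were removed their r with *Rbp4* was 0.35 to 0.77. *Rbp2* was followed most closely by *Spats2* (0.972), *0610009L18Rik* (0.969), *Dopey2* (0.961), *Trip6* (0.945) and *Rhoq* (0.938), in each of which the labels overlapped.

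The wider pathway was read from 58 further genes of retinoid uptake, storage, oxidation, reception and response, of which 38 could be tested. 0 of the 38 passed an adjusted p of 0.1 in edgeR (background 0.0851%), and 3 had an unadjusted p under 0.05, which is 7.89% beside 9.15% of all genes. 23 were fitted higher and 15 lower in the libraries labelled Mll1-/-, with a median log2 fold change of 0.15 beside 0.0076. DESeq2, which called 2.47% of all genes, called 2 of them, 1 of which was *Rdh1*. The libraries of the labels did not overlap in 2 of 38, both lower, which is 5.26% beside 6.28% of all genes.

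Among the dehydrogenases that act on retinol, *Adh1* and *Rdh1* had fitted values in opposite directions. *Adh1*, an alcohol dehydrogenase that oxidises retinol and the highest of the 58 genes per length (129 RPKM), was at 189, 15.1, 204 and 74.3 CPM in J_7075, J_7096, J_7135 and J_7136 and at 544, 258, 345 and 674 CPM in J_7079, J_7100, J_7134 and J_7139. Every library labelled Mll1-/- lay below every control, and the log2 fold change of -1.92 (SE 0.67) did not pass the test (edgeR adjusted p = 0.462). *Rdh1*, a retinol dehydrogenase, had a log2 fold change of 1.99 (SE 0.66, edgeR adjusted p = 0.438), with means of 13.7 ± 9.09 and 3.46 ± 2.04 CPM. 27.9% of its 31-base words also occur in other genes, foremost *Rdh16f1*, so its count is uncertain. *Adh4*, *Adh5*, *Rdh13* and *Dhrs4* had log2 fold changes of -2.74, -0.23, 0.46 and 0.60 (edgeR adjusted p = 0.622, 0.659, 0.666 and 0.745). *Adh4* had 17, 3, 0 and 0 counts in the libraries labelled Mll1-/- and 48, 0, 47 and 22 in the controls. *Dhrs4* was at 222 CPM in J_7135 and at 46.4 to 70.9 CPM in the others labelled Mll1-/-, against 51.7 to 71.3 CPM in the controls. *Dhrs4* and *Adh5* were the next highest per length (45.9 and 36.5 RPKM). In all, 7 of the 14 tested genes of this step were fitted higher and 7 lower.

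*Lrat*, which esterifies retinol for storage, was the other gene without overlap. It was at 4.35, 7.33, 0 and 7.59 CPM in J_7075, J_7096, J_7135 and J_7136 and at 12.3, 14.5, 11.99 and 14.6 CPM in J_7079, J_7100, J_7134 and J_7139, and its log2 fold change was -1.47 (SE 0.88, edgeR adjusted p = 0.655). *Isx*, a homeobox gene of the gut that retinoic acid induces, and *Tgm2*, a transglutaminase that retinoic acid induces, had log2 fold changes of 0.36 and 0.22 (edgeR adjusted p = 0.667 and 0.745), and 20% of the words of *Tgm2* also occur in other genes. Of the other receptors, 3 of 4 were tested and all 3 were fitted higher with 0 called by edgeR. Of the 17 target genes on the list that are no members, 8 were tested, 7 fitted higher and 1 lower, with 0 called by edgeR. Over all genes tested, 8350 of 16445 were fitted higher. Several of these receptor and target genes were lower in run 1 and higher in run 2. Of the degrading enzymes other than *Cyp26b1*, 0 of 2 could be tested.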

How the data were processed

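The 8 Smart-seq2 libraries each came from sorted Lgr5-GFP+ cells of 1 mouse, with 4 mice per genotype. The authors aligned reads to mm10 with GSNAP and deposited raw counts of uniquely mapped reads per gene (featureCounts 1.6.3, Ensembl release 92, strand not used, mapping quality of at least 1). A second table the authors deposited gives signal values of 25485 genes, in which each library's counts were divided by its DESeq2 1.22.2 size factor, used here only for gene symbols and to see which members it holds. Other deposited columns give exonic length. Versions, with bcl2fastq 2.19.1, are from the submitters' processing notes.

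The 92 spike-in transcripts were left out. Counts of 53801 genes were filtered with filterByExpr (10 counts, 15 in total), scaled by TMM and tested in edgeR 4.0.16 (robust quasi-likelihood, genotype the only term, R 4.3.3), with Benjamini-Hochberg adjustment over 16445 genes and a threshold of 0.1, and standard errors were taken from the fold change and its F statistic. Tests were checked on simulated data. The members and lists were chosen with earlier results of these data known. Named genes were all members, *Kmt2a* and *Ctnnb1*, the 10 pathway genes of smallest p and the 3 highest per length, and the 5 genes most like *Rbp4* and *Rbp2*, of which 1 pathway gene is counted but not reported here; *Olfm4* and the named markers were singled out after their values were seen. *Ctnnb1* had a log2 fold change of 0.099 (adjusted p = 0.859). Replicates were numbered within a genotype in accession order, hom 1 to 4 being J_7075, J_7096, J_7135 and J_7136 and het 1 to 4 J_7079, J_7100, J_7134 and J_7139. Depth was 14468751 to 16847793 counts, and without molecular identifiers the floors cover counting error only. Alternatives were DESeq2 1.42.0 size factors and Wald test, 2 filters, a block of the library runs, a pseudocount of 1, levels without length, and each library left out. 31-base words were counted from annotated transcripts, and figures were drawn with matplotlib 3.10.9.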

Additional observations from a re-analysis of the deposited data

Results flagged for a closer look

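The lowest or highest library of each genotype was set against the others of its group for the 9 genes by Dixon's criterion at its 95% critical value, which gave 2 of 18 groups, where chance alone marks about 1 in 20. *Aldh1a2* was at 0.160 CPM in J_7134 (2 counts) and at 0 in the other 3 libraries labelled Mll1+/-. *Cyp26b1* was at 0.0588 CPM in J_7075 (1 count) and at 0 in the other 3 libraries labelled Mll1-/-. Both values lie under the floor of 3 counts. With the other 3 libraries at 0, the criterion marks any value above 0. The rate of 1 in 20 is therefore no reference for these 2 groups, and neither flag is read as a result.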

How the results depend on the processing

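The number of members other than *Rbp4* that were called stayed at 0 under each alternative run (other scaling, DESeq2, both filters, the run block, each library left out), and 0 neighbours in the order of levels passed an adjusted p of 0.05 with a pseudocount of 1 or in CPM without length, where the order itself changed. The number of genes called among all, 14, was 406 with DESeq2's Wald test, 47 without a filter, 34 with at least 10 counts in every library, 0 with a block of the 2 runs (1642 at an unadjusted p under 0.05), and 0 to 45 with 1 library left out (45 without J_7135, 2 without J_7075, 0 without any other), so a count of 0 members does not set them apart from most genes. The number called among the other pathway genes, 0, was 2 with DESeq2's Wald test and 0 to 1 with 1 library left out (1 without J_7135), and their median log2 fold change ran from 0.025 to 0.22 with 1 library left out, being 0.048 without J_7134 and 0.025 without J_7136. The log2 fold change of *Aldh1a1* changed sign, to 0.0057 with DESeq2 size factors, 0.0055 with DESeq2's test, 0.011 without a filter, and to between -0.70 and 0.36 with 1 library left out, and the cause was not tested. With at least 10 counts in every library only *Rbp2* and *Rara* of the members could be fitted. No paired analysis was possible because the labels give the genotypes no shared replicate numbers. *Aldh1a2*, *Aldh1a3* and *Cyp26b1*, and *Rbp4* in the controls, rest on a few counts per library. The part of depth in this was not tested.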
